A study of Mus musculus with 6 samples.

Results

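The insulin-like growth factor (IGF) axis was followed in primary mouse lung fibroblasts (LFs) through 10 genes: the ligand genes Igf1 and Igf2, the receptor genes Igf1r and Igf2r, and the IGF binding protein genes Igfbp2, Igfbp3, Igfbp4, Igfbp5, Igfbp6 and Igfbp7. They were chosen by gene symbol, with earlier results of these data known, out of 55364 genes listed in the count tables. Each of the 10 was found and passed the filter on low counts. RNA came as 3 samples of wild type (wt) LFs and 3 of LFs whose label reads TKS5 knockout. Each sample is called a culture here, although the sources do not say that each was grown separately. The study itself names the genotype of these LFs Tks5+/-, that is heterozygous, and obtained no homozygous mice, and its name is used here. All 6 cultures, wt ones included, had received 10 ng/ml TGFβ1 for 24 h in serum-free medium after growth in serum, so no untreated LFs were compared. The cells came from C57Bl6/J mice aged 8 to 10 weeks and were used at low passage. The labels do not say which mouse each library came from, nor which of the study's targeted alleles the Tks5+/- LFs carried, so the p-values measure the spread between these samples, which may be technical.

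IGF-1 and IGF-2 are small secreted growth factors that act mainly through the IGF-1 receptor, a tyrosine kinase that signals to PI3-kinase, AKT and mTOR. The IGF-2 receptor is not a kinase but takes up IGF-2 and mannose 6-phosphate-tagged enzymes for delivery to lysosomes. The binding proteins hold most extracellular IGF, keep it from the receptor or release it when cut by proteases, and several of them are abundant products of fibroblasts that have been studied in lung fibrosis.

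Reads were counted on the 3' UTR regions of each gene, and the libraries held 1344507 to 2369882 counts in wt LFs and 1979084 to 2329155 in Tks5+/- LFs. The 10 genes together took 0.121% to 0.162% of a library. Levels are given as CPM, counts per 1000000 counts of a library whose size was scaled with TMM factors, and a gene was called where edgeR's quasi-likelihood F test gave p, adjusted by Benjamini-Hochberg, below 0.05 for a change of 1.2-fold or more. Where a library had no read of a gene, up to 3 counts could have been missed, or 1.93 CPM in the shallowest library, and this covers counting error only. Sh3pxd2a, the gene of Tks5, measured 113 ± 16.5 CPM in wt LFs and 138 ± 11.1 in Tks5+/- LFs (SD, n = 3 each), and its adjusted p was 0.249 in the edgeR test. Its log2 fold change of 0.29 became 1.0 and was called higher once libraries were corrected for a trend with transcript length (edgeR, adjusted p = 0.000523), and was -0.13 with library totals as the scaling. The loxP-flanked exon 11 lies outside the counted 3' UTR, so these reads do not show whether it was deleted. The study reports less Tks5 mRNA in Tks5+/- LFs by Q-RT-PCR, a fall that the 3' UTR reads did not show. The reason was not tested. Fibroblast markers were abundant in every library, at a summed level of 5150 to 6510 CPM in wt LFs and 5990 to 9210 CPM in Tks5+/- LFs. They were not all stable: of 10 tested, 4 were called higher and 2 lower in Tks5+/- LFs, beside 22.8% and 22.1% of all genes. Wt replicate 3 stood apart by its macrophage markers, whose summed level was 2290 CPM there, against 406 and 372 CPM in the other wt libraries and 135 to 155 CPM in Tks5+/- LFs.

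Of the 10 genes, 4 were called between the genotypes. Igfbp4 and Igfbp5 were higher in Tks5+/- LFs, by 5.20-fold and 3.59-fold, and Igfbp2 and Igf1r were lower, by 5.17-fold and 2.70-fold. In each of these 4 genes the wt libraries and the Tks5+/- libraries did not overlap. How many of all genes did likewise was not counted, so it is not known whether this sets these genes apart. Igf1, Igf2, Igf2r, Igfbp3, Igfbp6 and Igfbp7 were not called. Over all 10346 genes tested, 44.9% were called (22.8% higher and 22.1% lower), so that 4 of 10 is close to the share among all genes. The median log2 fold change of the 10 genes was 0.076, beside -0.046 over all genes tested. Without wt replicate 3, the library rich in macrophage markers, 2 genes were higher and 3 lower, the third being Igfbp3.

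**Figure D1:**
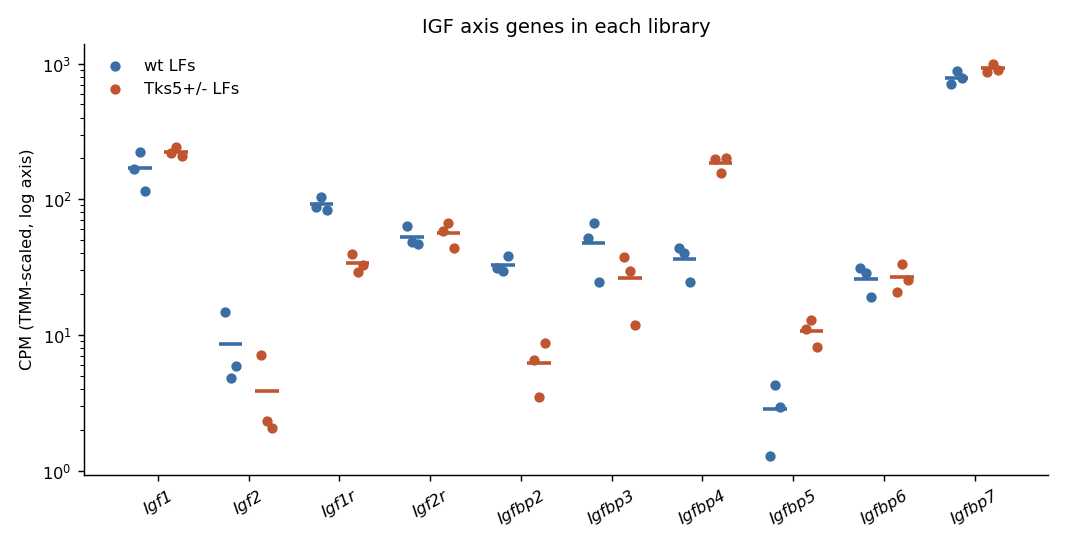
Level of each IGF axis gene in each library, as TMM-scaled CPM on a log axis; dots are the 3 wt and 3 Tks5+/- libraries and bars their means. Igf1r and Igfbp2 lie lower, and Igfbp4 and Igfbp5 higher, in all 3 Tks5+/- libraries than in any wt library, while the dots of the other 6 genes overlap.

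The 4 called genes lie at 3 places in the genome. As the sequences that stand in front of them, the 30 bases before the RefSeq start of each gene (GRCm38.p6) are shown. They are read 5' to 3' on the strand of the gene. RefSeq starts can differ from the GENCODE gene positions given below. The Igf1r window ends at 67952256 and the GENCODE gene starts at 67952827, while the Igfbp5 window reaches into the GENCODE gene. Igfbp2 has 2 RefSeq starts, of which the nearest to the GENCODE start was taken. Capitals mark a TATAAA box or a GGGCGG box, the motifs searched on both strands, which cannot overlap each other.
Igfbp4 (chr11:99041214-99041243, + strand): ggTATAAAgtcccgggagccggtcccgggc
Igfbp5 (chr1:72874866-72874895, - strand): ccagagcccgcagtctctttggaaacttct
Igfbp2 (chr1:72824450-72824479, + strand): gagaagcaggctttttaggacccggcagag
Igf1r (chr7:67952227-67952256, + strand): cgcgGGGCGGcgggagcgctgagcgctgcg
Among 32851 RefSeq promoters, 2.04% held TATAAA and 9.80% held GGGCGG in the same window. The window of Igfbp4 held the first, that of Igf1r the second, and those of Igfbp5 and Igfbp2 neither. The 2 genes that rose thus shared neither motif in these bases, nor did the 2 that fell. A match of letters is a description and not a binding site.

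Igfbp4 showed the largest rise of the 10 genes. It encodes a binding protein that mostly withholds IGF from its receptor until the protease PAPP-A cuts it. The gene (ENSMUSG00000017493) occupies 99041244 to 99054392 of chromosome 11 (GRCm38, forward strand). In the order of the replicate numbers, which is kept throughout, the wt cultures had 68, 75 and 66 counts and the Tks5+/- cultures 362, 268 and 392. The 3 wt counts were near each other although wt replicate 3 was the deepest wt library, and the lowest Tks5+/- count was over 3 times the highest wt count. Scaled, the level was 36.1 ± 10.2 CPM in wt LFs against 185 ± 24.7 CPM in Tks5+/- LFs (SD, n = 3 each). The log2 fold change was 2.38 with a standard error of 0.24 and a 95% interval of 1.88 to 2.88 (edgeR, adjusted p = 1.16e-07). Igfbp4 was called higher under all 18 alternative settings run, with log2 fold changes from 1.96 to 2.55.

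Igfbp5, which encodes a binding protein that also attaches to extracellular matrix, was read shallowly. It (ENSMUSG00000026185) lies on chromosome 1 from 72857932 to 72874884 on the reverse strand, and had 2, 8 and 8 counts in the wt cultures against 20, 22 and 16 in the Tks5+/- ones. Every Tks5+/- library held at least 2 times the count of any wt library. The level was 2.85 ± 1.50 CPM in wt LFs and 10.7 ± 2.36 in Tks5+/- LFs (SD, n = 3 each). This gave a log2 fold change of 1.84 with a 95% interval of 0.88 to 2.81 (edgeR, adjusted p = 0.00266). The gene was called higher in all 17 alternatives that tested it, at 1.43 to 2.27. It was left untested where 10 counts were required in every library.

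Igfbp2 lies tail to tail with Igfbp5 on chromosome 1 (ENSMUSG00000039323, 72824503 to 72852474, forward strand), with 5457 bases and no other annotated gene between them. It encodes a binding protein that prefers IGF-2. While Igfbp5 rose, Igfbp2 fell from 48, 55 and 103 counts in wt LFs to 12, 6 and 17 in Tks5+/- LFs. Wt replicate 3 had the most counts, yet in CPM it was close to the other wt libraries, at 38.2 CPM beside 30.9 and 29.4 CPM. The mean went from 32.8 ± 4.69 CPM to 6.26 ± 2.61 CPM (SD, n = 3 each), a log2 difference of -2.37 (standard error 0.33, 95% interval -3.05 to -1.68, edgeR adjusted p = 5.91e-06). When single libraries were left out it lay between -2.65 and -2.07 and stayed called. It was lower and called in all 17 alternatives that tested it.

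Igf1r, the gene of the signalling receptor (ENSMUSG00000005533, chromosome 7, 67952827 to 68233668, forward strand), had 136, 194 and 225 counts in the wt cultures against 72, 50 and 64 in the Tks5+/- ones. Each Tks5+/- library thus held fewer reads of the receptor than the shallowest wt library. Its level was 91.6 ± 10.8 CPM in wt LFs and 33.8 ± 5.21 CPM in Tks5+/- LFs (SD, n = 3 each). The log2 difference was -1.43, with a standard error of 0.22 and a 95% interval of -1.89 to -0.97 (edgeR, adjusted p = 2.11e-05). Igf1r was lower and called under all 18 alternatives. Its longest transcript has 11409 bases, the most of the 10 genes. Across all tested genes with a known length, the log2 fold change correlated with transcript length at a Spearman's rho of -0.397 (10339 genes, which are not independent replicates and share the 6 libraries). Each library was therefore also corrected for this trend, and the value of Igf1r then moved to -0.70 (edgeR, adjusted p = 0.0119).

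The other receptor did not follow. Igf2r (ENSMUSG00000023830, chromosome 17, 12682406 to 12769664, reverse strand) had 98, 91 and 126 counts in the wt cultures against 107, 115 and 86 in the Tks5+/- ones. The groups overlapped at 52.8 ± 8.93 CPM and 56.7 ± 11.8 CPM (SD, n = 3 each). The log2 fold change of 0.11 had a 95% interval of -0.37 to 0.58 (edgeR, adjusted p = 0.730). Under the correction for transcript length it was called higher, at 0.73 (edgeR, adjusted p = 0.0143), whereas scaling by library totals put it at -0.32. Within a library, where no scaling enters, Igf1r had 1.39, 2.13 and 1.79 reads per read of Igf2r in wt LFs and 0.673, 0.435 and 0.744 in Tks5+/- LFs. These ratios were looked at after the single genes and are given without a test.

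**Figure D2:**
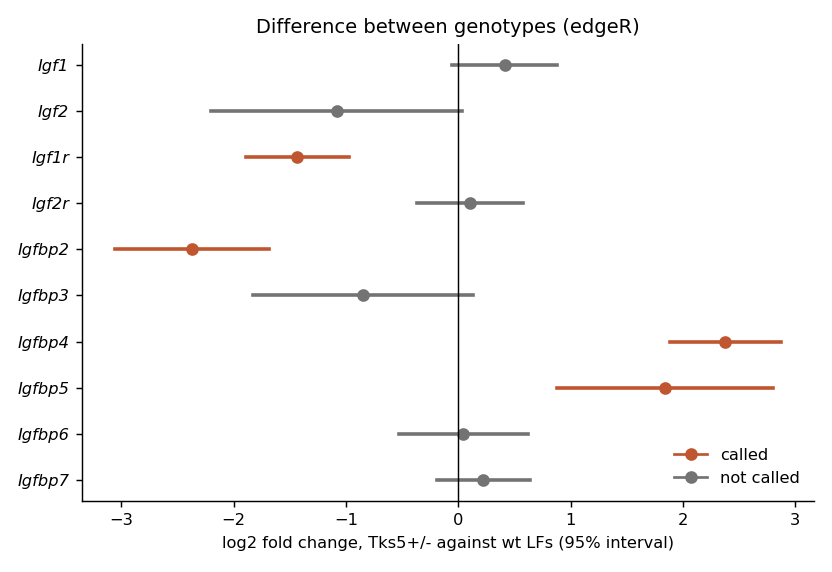
Log2 fold change of each IGF axis gene in Tks5+/- against wt LFs with its 95% interval from edgeR; orange genes were called and grey genes were not. The intervals of Igf1r and Igfbp2 lie below 0, those of Igfbp4 and Igfbp5 above it, and the 6 grey intervals include 0.

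Igf1, the gene of the ligand that fibroblasts and macrophages of the lung secrete (ENSMUSG00000020053, chromosome 10, 87858265 to 87937042, forward strand), had 261, 419 and 312 counts in the wt cultures against 403, 417 and 409 in the Tks5+/- ones. Its level was 169 ± 54.3 CPM and 225 ± 17.6 CPM (SD, n = 3 each), a log2 difference of 0.41 with a 95% interval of -0.05 to 0.88 (edgeR, adjusted p = 0.140). The wt libraries spread more widely than the Tks5+/- libraries, and wt replicate 2 lay within their range. The library richest in macrophage markers, wt replicate 3, had the lowest Igf1 level of all, 116 CPM. Igf1 was called higher without wt replicate 2 (0.67, edgeR adjusted p = 0.0479) and at 0.93 once transcript length was corrected for (adjusted p = 0.00224), and was -0.01 with library totals as the scaling. Per read of Igf1r there were 1.92, 2.16 and 1.39 reads of Igf1 in wt LFs and 5.60, 8.34 and 6.39 in Tks5+/- LFs, again without a test.

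Igf2, the gene of the fetal growth factor, was near the floor. It (ENSMUSG00000048583, chromosome 7, 142650766 to 142666816, reverse strand) had 23, 9 and 16 counts in the wt cultures against 13, 4 and 4 in the Tks5+/- ones. The log2 difference of -1.08 had a 95% interval of -2.20 to 0.04 (edgeR, adjusted p = 0.108), and the groups overlapped. It was called lower without Tks5+/- replicate 1 (-1.82, edgeR adjusted p = 0.0323) and with library totals as the scaling (-1.49, adjusted p = 0.0307). Gm49394, an annotated gene on the same strand whose exons overlap those of Igf2, had exactly the same count in each of the 6 libraries. The same reads were therefore listed under both genes, and which of them they came from cannot be told apart.

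Igfbp7 had by far the most reads of the 10 genes, but its value cannot be taken as that of Igfbp7 alone. It encodes a secreted protein related to the binding proteins that holds IGF only weakly. The gene (ENSMUSG00000036256, chromosome 5, 77349240 to 77408041, reverse strand) had 1093, 1641 and 2119 counts in the wt cultures against 1571, 1708 and 1764 in the Tks5+/- ones. Polr2b, which encodes a core subunit of RNA polymerase II, lies on the opposite strand and overlaps the end of Igfbp7 by 85 bases. It had 1088, 1627 and 2106 counts in the wt cultures against 1566, 1702 and 1752 in the Tks5+/- ones, within 0.853% of Igfbp7 in every library.

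Nearly all reads of this locus were thus given to both genes. Beyond it, of 331 tail-to-tail gene pairs on opposite strands whose ends overlap and whose genes average at least 10 counts, 80 (24.2%) had counts within 5% of each other in all 6 libraries. Of 107 such pairs with ends 300 to 1000 bases apart, 2 (1.9%) did. Listed as Igfbp7, the shared reads came to 789 ± 87.4 CPM in wt LFs and 921 ± 70.6 CPM in Tks5+/- LFs (SD, n = 3 each). The log2 fold change was 0.22 with a 95% interval of -0.19 to 0.64 (edgeR, adjusted p = 0.377). It was called higher with the correction for GC content (0.53, edgeR adjusted p = 0.042) and was -0.45 on the authors' normalized counts. How each of the genes differed by itself cannot be told apart from these reads. Of the other 9 genes, only Igf2 had a gene with reads that overlapped its end or began within 1000 bases of it.

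**Figure D3:**
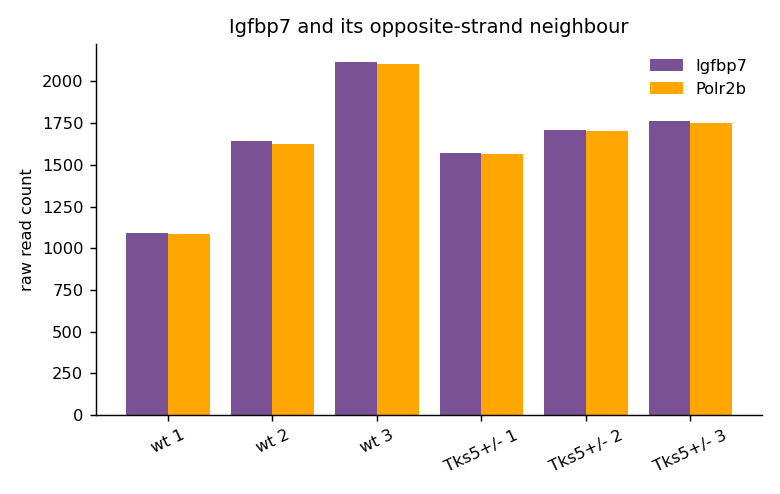
Raw read counts of Igfbp7 and of Polr2b, its neighbour on the opposite strand, in each library. The paired bars are nearly equal in all 6 libraries, within 0.853%.

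Igfbp3, the main IGF carrier of blood and a gene that TGFβ is known to induce in fibroblasts, varied widely between replicates. It (ENSMUSG00000020427, chromosome 11, 7206086 to 7213923, reverse strand) had 80, 126 and 66 counts in the wt cultures against 68, 51 and 23 in the Tks5+/- ones. Scaled to CPM, these were 51.5, 67.4 and 24.5 CPM beside 37.3, 29.8 and 11.8 CPM, so that wt replicate 3 lay below Tks5+/- replicates 1 and 2. The log2 difference of -0.85 had a 95% interval of -1.83 to 0.13 (edgeR, adjusted p = 0.143). Without wt replicate 3 the gene was called lower, at -1.19 (edgeR, adjusted p = 0.00581). It was below 0 in all 18 alternatives and called in 4 of them, over which the adjusted p ran from 0.00581 to 0.357. Its neighbour Igfbp1, 3539 bases away and mainly a liver gene, had 4 reads in all libraries together and was not tested.

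Igfbp6, whose protein binds IGF-2 far more tightly than IGF-1 (ENSMUSG00000023046, chromosome 15, 102144362 to 102149511, forward strand), had 48, 53 and 51 counts in the wt cultures against 38, 57 and 50 in the Tks5+/- ones. The mean levels, 26.1 ± 6.32 CPM and 26.6 ± 6.31 CPM (SD, n = 3 each), differed by less than the spread between replicates. The log2 fold change of 0.05 had a 95% interval of -0.53 to 0.62 (edgeR, adjusted p = 0.908). Changes within this interval remain possible, and the smallest change detectable at this depth was not worked out. The sign of the log2 fold change was not stable, with 13 of 18 alternatives above 0 and 5 below.

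Each binding protein gene was also set against its relatives in the same library, where the shares of their reads do not depend on how libraries were scaled. Over Igfbp2 to Igfbp7, Igfbp4 took 3.88% ± 1.17 of the reads in wt LFs and 15.8% ± 2.72 in Tks5+/- LFs (SD, n = 3 each), and Igfbp2 took 3.55% ± 0.73 and 0.538% ± 0.236. The uncertain Igfbp7 took 84.4% and 78.2% and so set the scale of the other shares. An exact two-sided permutation test gave p = 0.1, the smallest that 3 against 3 libraries allow, for Igfbp2, Igfbp4, Igfbp5 and Igfbp7 (adjusted p = 0.15 over the 6 genes), p = 0.2 for Igfbp3 and p = 0.4 for Igfbp6.

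Among the 5 genes other than Igfbp7, the order of the shares differed between the genotypes. In wt LFs, Igfbp3 held 32.5%, 39.7% and 22.4% of these reads, Igfbp4 27.6%, 23.7% and 22.4%, and Igfbp2 19.5%, 17.4% and 35.0%. In Tks5+/- LFs, Igfbp4 alone held 72.4%, 66.3% and 78.7%, while Igfbp3 held 13.6%, 12.6% and 4.62% and Igfbp2 2.40%, 1.49% and 3.41%. The 2 groups did not overlap for any of the 5 genes (exact two-sided permutation test, p = 0.1 each, adjusted p = 0.1). Shares of 1 sum are tied to each other, so that the rise of Igfbp4 by itself lowers the rest. The ratio of Igfbp4 to Igfbp2 reads, which is free of this, was 1.42, 1.36 and 0.641 in wt LFs and 30.2, 44.7 and 23.1 in Tks5+/- LFs, and that of Igfbp4 to Igfbp3 was 0.85, 0.595 and 1.0 against 5.32, 5.25 and 17.0. These are shares of reads and not of protein.

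**Figure D4:**
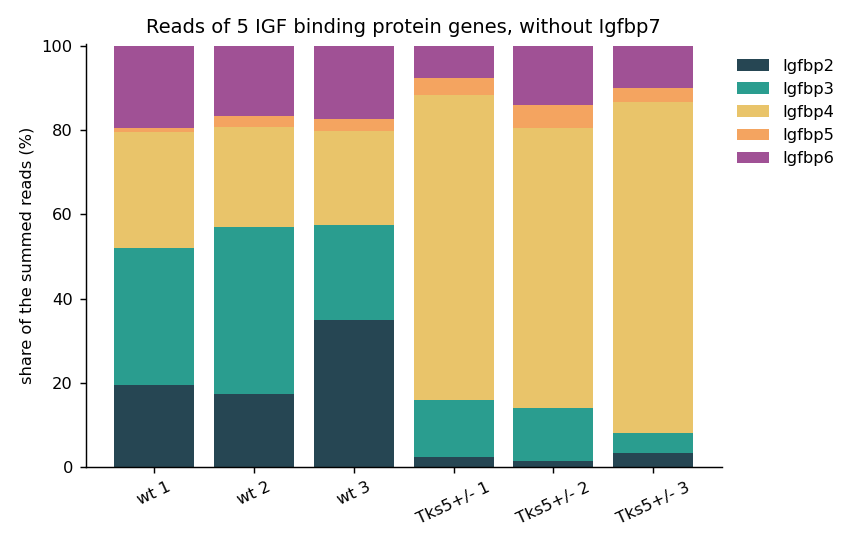
Share of each of 5 IGF binding protein genes in their summed raw reads, per library, leaving out Igfbp7. Igfbp4 makes up 22.4% to 27.6% of the bar in the 3 wt libraries and 66.3% to 78.7% in the 3 Tks5+/- libraries, where the Igfbp2 segment nearly vanishes.

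Around the 10 genes, 52 others of the pathway were listed and 41 of them tested. Of these, 6 were called higher and 14 lower in Tks5+/- LFs, 48.8% of those tested, beside 44.9% of all genes. Their median log2 fold change was -0.34. With the correction for transcript length, 11 were higher and 9 lower, so the balance of directions depended on that trend.

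Among other ligands, receptors and carriers, 4 of 10 genes were tested and all 4 were called, beside 44.9% of all genes, although the calls of Insr and M6pr did not hold under every alternative. Lrp1, an endocytic receptor that binds many secreted proteins, fell from 124 ± 11.7 to 45.4 ± 13.6 CPM (SD, n = 3 each; log2 difference -1.45, edgeR adjusted p = 3.19e-05), and its difference was -0.60 once length was corrected for (adjusted p = 0.0355). Tmem219, described as a cell surface receptor of IGFBP-3, rose from 55.2 ± 8.08 to 126 ± 26.9 CPM (SD, n = 3 each; 1.19, edgeR adjusted p = 1.52e-04). The insulin receptor gene Insr had 21, 22 and 26 counts in the wt cultures against 6, 15 and 7 in the Tks5+/- ones and was called lower (-1.15, edgeR adjusted p = 0.0335). At this depth the call of Insr was lost without replicates 1 or 2 of wt LFs (adjusted p = 0.0998 and 0.0797) and without replicates 1 or 3 of Tks5+/- LFs (0.143 and 0.142). It was also lost with DESeq2 (adjusted p = 0.0793) and with the length correction (-0.50, edgeR adjusted p = 0.383). M6pr, the smaller mannose 6-phosphate receptor, was higher (0.86, edgeR adjusted p = 0.00847), but not called without Tks5+/- replicate 2 (0.50, adjusted p = 0.0993) nor with library totals as the scaling (0.42, adjusted p = 0.160). Its end lies 50 bases from that of Phc1 on the opposite strand, which had 68, 92 and 127 counts in wt LFs, near the 68, 90 and 108 of M6pr, and 78, 142 and 75 in Tks5+/- LFs against 114, 200 and 116, so the value of M6pr is uncertain. M6pr and the akin receptor Igf2r thus differed in their calls, which was not tested as a difference. The insulin genes Ins1 and Ins2, Insrr and Igfals, the gene of the subunit that stabilises IGF in blood, had no read in any library.

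Of 5 tested genes for proteases that cut binding proteins and for inhibitors of those proteases, 1 was called, beside 44.9% of all genes. Stc1 encodes stanniocalcin-1, a secreted inhibitor of PAPP-A. It had 16, 17 and 29 counts in the wt cultures against 51, 70 and 71 in the Tks5+/- ones, and all 3 Tks5+/- libraries lay above the wt libraries. Its level was 10.1 ± 0.856 CPM and 35.1 ± 6.58 CPM (SD, n = 3 each; log2 difference 1.79, edgeR adjusted p = 2.98e-05), and it was called higher in all 18 alternatives. Its relative Stc2 was at 0.44 (edgeR, adjusted p = 0.354). Pappa, the gene of the protease that cuts IGFBP-4, was at 48.0 ± 16.8 and 32.7 ± 7.36 CPM (SD, n = 3 each; log2 difference -0.54, edgeR adjusted p = 0.116) and was called lower without wt replicate 3 (-0.82, edgeR adjusted p = 0.0159) and with library totals as the scaling (-0.95, adjusted p = 0.00953). The gene of the substrate, Igfbp4, and that of the inhibitor, Stc1, were thus both called higher, while that of the protease was not called.

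Of the genes for RNA handling of Igf2, Igf2bp2 alone was tested, at -0.58 (edgeR, adjusted p = 0.0753). H19, the imprinted noncoding RNA next to Igf2, had 2, 2 and 5 counts in the wt cultures against 6, 10 and 12 in the Tks5+/- ones. Igf2bp3 had 4, 8 and 5 counts and 14, 9 and 15, though its end overlaps the more highly counted Malsu1 on the opposite strand. Igf2bp1 had 1, 7 and 15 counts in the wt cultures against 7, 7 and 10 in the Tks5+/- ones.

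Below the receptor, 31 of 32 genes were tested, of which 12 were lower and 3 higher, where 22.1% of all genes were lower and 22.8% higher. The lower genes included both docking proteins of the receptor. Irs2 went from 29.1 ± 3.37 to 10.9 ± 2.00 CPM (SD, n = 3 each; log2 difference -1.41, edgeR adjusted p = 4.29e-04) and was called in all 18 alternatives. Irs1, with 8, 16 and 25 counts and 6, 6 and 5, was at -1.32 (edgeR, adjusted p = 0.0258). Its call held without wt replicate 1 (adjusted p = 0.0245), but not without any other library (adjusted p 0.0599 to 0.122). It was also lost with DESeq2 (0.0892), the authors' normalized counts (0.0719), no filter (0.060) and the length correction (-0.70, 0.251), which left it called in 8 of 17 alternatives.

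The other lower genes were the PI3-kinase subunit Pik3r1 (-1.48), the exchange factor Sos2 (-1.50), the phosphatase Ptpn1 (-1.01), the FOXO transcription factors Foxo1 (-1.49) and Foxo3 (-1.47), the kinase Gsk3b (-1.27), the mTOR inhibitors Tsc1 (-1.20) and Tsc2 (-1.74), and the mTOR partners Rptor (-1.25) and Rictor (-1.37). Activators of the pathway, such as Irs2, and genes of its restraints, such as Ptpn1 and Tsc1, were both among the lower genes. Tsc2 shares its end with Pkd1 on the opposite strand, which had 198, 243 and 298 counts in the wt cultures against 69, 82 and 58 in the Tks5+/- ones beside 152, 198 and 234 and 53, 61 and 43 of Tsc2, and its value is uncertain for that reason. Rptor was called without Tks5+/- replicate 1 (-1.92, edgeR adjusted p = 0.00742) but not without any other library (adjusted p 0.0556 to 0.172), and in 9 of 17 alternatives in all. Tsc1, Rptor and Rictor were also not called with the correction for transcript length (-0.67, -0.79 and -0.76).

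The higher genes were Rheb, Grb14 and Akt1. Rheb, the small GTPase that activates mTOR and is held in check by the TSC proteins, rose from 52.1 ± 4.02 to 115 ± 19.9 CPM (SD, n = 3 each; log2 difference 1.13, edgeR adjusted p = 1.80e-04) and was called in all 18 alternatives. Grb14, an adaptor that blocks insulin-type receptors, had 10, 13 and 11 counts in the wt cultures against 38, 34 and 11 in the Tks5+/- ones (1.42, edgeR adjusted p = 0.0128). The groups overlapped, and its call was lost without wt replicate 3, Tks5+/- replicate 1 or Tks5+/- replicate 2 (adjusted p = 0.0562, 0.0723 and 0.0645), as well as with limma-voom (0.0554) and library totals (0.0717). Akt1 (0.59, edgeR adjusted p = 0.0427) lost its call without replicates 1 or 3 of wt LFs (adjusted p = 0.0871 and 0.165) and without replicates 1 or 3 of Tks5+/- LFs (0.0812 and 0.180). It was called in 7 of 18 alternatives, with adjusted p values from 0.00249 to 0.548. The 16 genes not called included the adaptor Grb10 (-0.09, edgeR adjusted p = 0.745).

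Markers of other cell types moved with the genotypes, and in bulk RNA fewer cells of a type and less RNA per cell cannot be told apart. Of 10 tested macrophage markers, 5 were called lower in Tks5+/- LFs, beside 22.1% of all genes, and 5 were not called. The median log2 fold change of the 10 was -3.06, and Ptprc and Adgre1 had no read in Tks5+/- LFs. Of 5 tested endothelial markers, 4 were lower, with summed levels of 119 to 152 CPM in wt LFs and 45.6 to 60.4 CPM in Tks5+/- LFs, where Pecam1, Tek and Vwf had no read. Mesothelial markers summed to 25.7 to 38.2 CPM and 4.09 to 10.4 CPM, and both tested were lower. Smooth muscle and pericyte markers summed to 4870 to 5770 CPM and 6290 to 7170 CPM, with 2 higher and 4 lower of 8 tested. Most of these sums was Acta2, at 4610 ± 548 and 4283 ± 739 CPM (SD, n = 3 each), which was not called. The 2 higher were Tagln (log2 difference 1.985) and Cnn1 (0.996). The 4 lower were Cspg4 (-3.55), Notch3 (-1.53), Des (-1.45) and Myh11 (-1.27). Epithelial markers summed to 27.3 to 48.9 CPM and 31.2 to 62.0 CPM, with Sftpc, Sftpb and Scgb1a1 at 0 in every library and 1 higher and 1 lower of 2 tested. Most of the sum in Tks5+/- LFs was Ager, the higher gene (20, 18 and 35 counts in wt LFs, 68, 103 and 57 in Tks5+/- LFs). Krt18 was lower (9, 11 and 31 counts against 0, 0 and 1), and Cdh1 (17, 8 and 58 counts in wt LFs), Krt8, Epcam and Foxj1 had no read in Tks5+/- LFs. Ddx3y, a Y-linked gene, was also lower in Tks5+/- LFs (146, 159 and 210 counts against 25, 19 and 21, log2 difference -2.84, edgeR adjusted p = 1.45e-08), while all 6 libraries held reads of the Y-linked Eif2s3y, Uty and Kdm5d and none of Xist. The part of such cells in the falls of Igfbp2 and Igf1r and in the rises of Igfbp4 and Igfbp5 was not tested. Without wt replicate 3, the log2 fold changes of these 4 genes were still called, in the order just given, at -2.24, -1.50, 2.14 and 1.85. The remaining wt libraries still had more macrophage marker reads, 406 and 372 CPM against 135 to 155 CPM in Tks5+/- LFs. Leaving out that library therefore does not separate cell types from genotype.

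**Figure D5:**
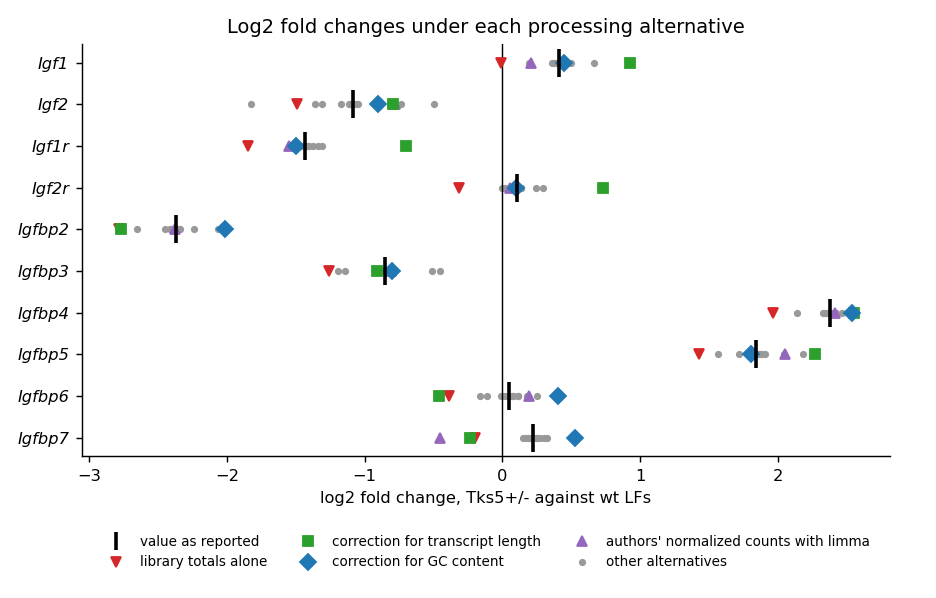
Log2 fold change of each IGF axis gene in Tks5+/- against wt LFs as reported (black bars) and under each processing alternative (symbols). Igfbp2, Igf1r, Igfbp4 and Igfbp5 keep their side of 0 under every setting that tested them, as do Igf2 and Igfbp3, which were not called. Igf1, Igf2r, Igfbp6 and Igfbp7 cross 0 with library totals as the scaling (red), and Igf1r moves most with the correction for transcript length (green).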

How the data were processed

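Poly(A) RNA of 6 LF samples was sequenced from the 3' end (QuantSeq, Ion Proton). The authors trimmed with Trim Galore, used HISAT2 and then BOWTIE2 for alignment to GRCm38, counted reads on 3' UTR regions with metaseqR2, and deposited raw counts per gene. Whether counting kept to 1 strand is not given in the sources used here. The deposited normalized table was used as a score only: the authors normalized it with EDASeq and rounded it, and all libraries hold the same sorted values.

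Groups and replicate numbers came from the sample titles. Of 55364 identifiers, 55104 matched GENCODE M21 (Ensembl 96, GRCm38). Raw counts were tested with edgeR 4.0.16 in R 4.3.3 (filterByExpr, TMM, robust quasi-likelihood F test, Tks5+/- against wt, no covariate), and p-values were adjusted over the 10346 genes tested. The script was tested on simulated data. Depth ran from 1344507 to 2369882 counts per library. The 18 alternatives were DESeq2 1.42.0, limma-voom (limma 3.58.1), RLE and upper-quartile scaling, library totals alone, limma on log2 of the normalized score + 1, no filter, at least 10 counts in every library, a test against a fold change of 1.2, loess corrections (span 0.5) for length and for GC content of the longest transcript, the replicate block, and each library left out. Shares of binding protein reads were compared by exact permutation tests. The members and lists were chosen with earlier results of these data known. Named were the 10 genes, fixed pathway genes, and called pathway genes with a log2 fold change of at least 1 either way and 10 counts on average. Akt1, M6pr, Phc1, Grb10, Polr2b, Gm49394, Malsu1, Pkd1 and Ddx3y were named after their values were seen. So were the ratios and the smooth muscle and pericyte markers. Promoter windows are from RefSeq (GRCm38.p6), in which all 10 genes matched.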

Additional observations from a re-analysis of the deposited data

How the results depend on the processing

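Igfbp4, Igfbp5, Igfbp2 and Igf1r kept their direction and their call under every alternative that tested them. The counts of called genes moved by over 1.5 times under 3 settings, and by 1.5 times or less under the others. With library totals as the scaling, which took the median over all genes from -0.046 to -0.47 on the log2 scale, 4 of the 10 IGF axis genes were lower, 3 pathway genes were higher, and 1362 genes were higher and 3944 lower over all. With the correction for transcript length, 4 IGF axis genes were higher, and 11 pathway genes were higher and 9 lower. With at least 10 counts in every library, 7 IGF axis genes were tested, of which 1 was higher and 1 lower, because Igf2, Igfbp2 and Igfbp5 were left out. With each library left out in turn, 2 to 3 IGF axis genes were higher and 2 to 3 lower, 4 to 7 pathway genes higher and 11 to 14 lower, and 2007 to 2477 genes higher and 1762 to 2118 lower over all.

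Among genes that were not called, the sign turned with library totals for Igf1 (-0.0093), Igf2r (-0.32), Igfbp6 (-0.39), Igfbp7 (-0.20) and Sh3pxd2a (-0.13). It turned with the length correction for Igfbp6 (-0.46), Igfbp7 (-0.24) and Pappa (0.18), on the authors' normalized counts for Igfbp7 (-0.45), and with at least 10 counts for Igfbp6 (-0.0078). It also turned for Igf2r without Tks5+/- replicate 2 (range -0.0059 to 0.30 over the libraries left out) and for Igfbp6 without that library (-0.11) or wt replicate 3 (range -0.16 to 0.25). The causes were not tested.

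The change of each share of binding protein reads, in percentage points, was -3.02 for Igfbp2, -2.81 for Igfbp3, 12.0 for Igfbp4, 0.608 for Igfbp5, -0.554 for Igfbp6 and -6.18 for Igfbp7. Leaving Igfbp7 out of the sum, it was -21.5, -21.3, 47.9, 2.20 and -7.28 for Igfbp2 to Igfbp6. From the authors' normalized counts it was -2.04 for Igfbp2, -1.28 for Igfbp3, 14.3 for Igfbp4, 0.854 for Igfbp5, 0.674 for Igfbp6 and -12.5 for Igfbp7. With each library left out, it lay between -3.39 and -2.66 for Igfbp2, -3.97 and -2.12 for Igfbp3, 11.1 and 13.5 for Igfbp4, 0.535 and 0.707 for Igfbp5, -0.898 and -0.162 for Igfbp6, and -7.58 and -4.48 for Igfbp7.

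Same-numbered libraries did not deviate together (correlations of deviations from the group means of -0.001, -0.064 and 0.082 for numbers 1, 2 and 3). With 3 libraries per group this cannot tell whether the numbers pair the samples, and the labels do not say. Not every library correlated best with its own number. With the replicate number as a block, 2 IGF axis genes were higher and 3 lower, Igfbp3 being added (-0.88, edgeR adjusted p = 0.00642), 5 pathway genes were higher and 16 lower, and 2360 genes were higher and 2308 lower over all. Igf2 and Igfbp5 had the fewest reads of the 10 genes, 11.5 and 12.7 counts on average.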
